A study of Mus musculus with 20 samples.

Results

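The comparison described here is the net change in gene expression between 1 and 10 months of age in retinas of Nrl-/- mice, taken from 8 arrays (4 mice per age) of a series of 20 arrays that also holds 4 mice each of 2, 4 and 6 months. All mice were Nrl-/- on the C57Bl/6J strain, the 1 month and the 10 month groups included, and both retinas of one mouse made up one sample, so replicates are separate mice. No agent was given and no wild-type retina is part of the series, so a change between the ages cannot be told apart from the ageing of any mouse retina. The labels used here give neither sex nor batch. Total RNA was treated with DNase, depleted of ribosomal RNA and hybridised to an Affymetrix mouse exon array. Levels are log2 values per gene, and 1 unit is a doubling.

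Nrl encodes a bZIP transcription factor that makes newborn photoreceptors become rods. Without it the photoreceptors take on a cone identity, so the Nrl-/- retina is used as a model of a retina whose photoreceptors are all cone-like. Photoreceptors capture light in a stack of membranes called the outer segment, which grows from a cilium and is renewed with help from the retinal pigment epithelium behind it. Muller glia span the retina, clear glutamate and potassium, recycle cone pigment and become reactive when photoreceptors are stressed or lost.

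All 8 arrays carried the genes of a cone-rich retina at high levels. Opn1sw, the short wavelength cone opsin, read 13.65 to 13.73 at 1 month and 13.49 to 13.63 at 10 months, and Gnat2, the alpha subunit of cone transducin, read 12.90 to 13.02 and 12.87 to 13. Nrl itself read 6.06 to 6.38 and 6.08 to 6.21 (change -0.08 ± 0.10, adjusted p = 0.527), and Nr2e3, a rod gene normally switched on by Nrl, read 5.10 to 5.78 and 5.55 to 5.80 and was too dim to be tested. Where the Nrl probe sets lie relative to the deleted part of the gene is not given in the sources used here, so these values do not check the genotype.

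Some arrays stood apart in genes of neighbouring tissue or of sex, and the results below are given with these values beside them. The mean of the pigment epithelium and melanin list (21 of its 23 genes measured, 17 of them tested) was 6.77 to 7.01 on the 1 month arrays. At 10 months it was 7.76, 6.65, 7.41 and 7.72 on replicates 1 to 4, so that 3 of the 4 arrays were above the highest of the other 16 arrays of the series (7.12) and replicate 2 was below the lowest of them (6.68). The mean of 2 Y-linked genes was 7.93 to 8.28 on the 4 arrays of 1 month, against 7.40, 4.13, 4.42 and 7.72 at 10 months. The mean of the lens list (18 of its 22 genes measured, 11 of them tested) was 6.07 to 6.72 at 1 month and 5.49 to 5.72 at 10 months.

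Per array, Rpe65, Rgr and Ttr of the pigment epithelium followed one pattern. Rpe65, the isomerase that regenerates 11-cis-retinal, read 6.15, 6.65, 6.36 and 6.75 at 1 month and 7.63, 6.35, 7.25 and 8.61 at 10 months. Rgr, a retinal-binding opsin of pigment epithelium and Muller cells, read 8.01, 8.22, 8.07 and 8.35 and then 9.17, 7.69, 9.19 and 9.94. Ttr, the thyroxine and retinol carrier transthyretin, read 9.39, 9.56, 9.62 and 9.84 and then 10.25, 8.94, 10.24 and 10.67. In each of these 3 genes 10 month replicates 1, 3 and 4 were above all 1 month arrays. Replicate 2 lay below all of them in Rgr and Ttr and within their range in Rpe65. Melanin genes were split further. Dct, a melanin synthesis enzyme, went from a range of 7.37 to 7.75 to values of 10.55, 6.44, 8.31 and 8.41, Tyrp1, a related enzyme, from a range of 6.52 to 6.93 to values of 9.0, 5.82, 7.27 and 7.46, and Pmel, the melanosome matrix protein, from a range of 7.28 to 7.70 to values of 8.90, 6.60, 7.62 and 7.52. Replicate 1 was the highest and replicate 2 the lowest in all 3, and replicate 2 was below every 1 month array. Tyr, the first enzyme of melanin synthesis, was under the level limit but showed the same order, with 6.46, 4.63, 5.44 and 5.75 at 10 months against 4.87 to 5.23 at 1 month.

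In the test across ages, 6 of the 17 list members were called higher and 1 lower, beside 20.6% of all genes called higher and 20.8% called lower. Rpe65 (0.98 ± 0.30, adjusted p = 0.0143), Rgr (0.84 ± 0.30, adjusted p = 0.0303) and Lrat, which esterifies retinol (0.70 ± 0.22, adjusted p = 0.0162), were among the 6. Rdh5, the 11-cis-retinol dehydrogenase, was not called (0.53 ± 0.26, adjusted p = 0.112), nor were Ttr, Tyrp1, Dct and Pmel (adjusted p = 0.198, 0.221, 0.235 and 0.626). Best1, a chloride channel of the pigment epithelium, was too dim to be tested. It read 5.32 to 5.73 at 1 month and 5.70, 5.80, 5.66 and 5.53 on 10 month replicates 1 to 4, with replicate 2 the highest. Without 10 month replicate 2, Rdh5, Ttr, Tyrp1 and Dct passed as well (changes of 0.87, 0.79, 1.21 and 1.58) and 12 of the 17 were called higher. The call of Rpe65 ended without replicate 4 (0.60, adjusted p = 0.0521), and that of Lrat ended without 1 month replicate 1 (0.61) or 10 month replicate 4 (0.54). The call of Rgr ended without any one of 1 month replicates 1 and 3 and 10 month replicates 1, 3 and 4 (0.52 to 0.81). Enpp2, which makes lysophosphatidic acid and is expressed in pigment epithelium among other tissues, read 8.74 to 8.97 at 1 month and 10.00, 9.26, 9.70 and 10.19 at 10 months, and was above all 1 month arrays also in replicate 2 (0.92 ± 0.14, adjusted p = 3e-05).

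Replicate 2 of 10 months was at least 1 log2 unit below the other 3 arrays of its age in 22 tested genes, against 1, 3 and 2 genes for replicates 1, 3 and 4. Of the 22 genes 13 were called higher at 10 months, beside 20.6% of all genes. Genes picked by higher values on the other 3 arrays of 10 months tend to be called higher, so this count is partly built in. The 3 genes with the widest gaps, named like the others of this paragraph after their values were seen, are not on the pigment epithelium list. Penk, the enkephalin precursor, read 8.20, 8.13, 7.96 and 7.97 at 1 month and 10.99, 7.96, 10.95 and 11.08 at 10 months. Optc, the vitreous protein opticin, read 5.94 to 6.47 and 8.67, 5.93, 8.55 and 8.79, and Fbln1, the matrix protein fibulin 1, read 6.43 to 6.75 and 9.42, 6.57, 9.11 and 9.38. In these genes 3 arrays of 10 months were raised by about the same amount and replicate 2 sat at or near the 1 month level. Mfap4, a microfibril protein (6.35 to 8.26 at 10 months), Best2, a channel of the ciliary epithelium (5.44 to 7.02), and Ptgds, prostaglandin D synthase (8.17 to 10.05), had the same low array. The calls of Optc and Fbln1 (changes 1.76 and 2.04) each ended without any one of 10 month replicates 1, 3 and 4, at 1.5 to 1.58 and 1.78 to 1.88, and that of Optc also without 1 month replicate 1 (1.67).

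The same genes were raised on single arrays of other ages. Optc read 5.80, 7.82, 8.55 and 6.00 at 2 months, 5.75, 5.80, 5.99 and 6.16 at 4 months and 6.01, 7.78, 6.95 and 6.01 at 6 months. Gpx3, the secreted glutathione peroxidase and the largest rise of the comparison among genes with at least 3 probe sets, read 7.03, 9.26, 10.32 and 6.93, 7.12, 7.03, 7.06 and 7.44 and 6.98, 9.67, 8.62 and 6.95. Both were high on replicates 2 and 3 of 2 and of 6 months and low on all arrays of 4 months. Rpe65 did not share this pattern and stayed between 6.28 and 7.22 on all 12 of these arrays. Dct, also on the pigment list, read 6.73, 7.05, 7.97 and 7.01 at 2 months and 6.83, 9.01, 6.50 and 6.81 at 6 months. The mean of the pigment list was 6.88, 6.87, 6.79 and 6.68 at 2 months and 7.05, 7.12, 6.71 and 6.83 at 6 months. At 1 month Gpx3 read 6.53, 6.62, 6.78 and 6.96, and at 10 months 10.64, 7.36, 9.90 and 10.33, a change of 2.83 ± 0.75 (adjusted p = 0.00506). All 4 arrays of 10 months were above those of 1 month, but with replicate 2 as the only 10 month array the change was 0.64 (adjusted p = 0.729). Niban1, a stress-induced protein (6.77 to 6.85 and 9.16, 7.08, 8.05 and 8.71), Fbn1, the matrix protein fibrillin 1 (7.14 to 7.40 and 8.92, 7.71, 8.68 and 9.05), Sod3, the secreted superoxide dismutase (5.89 to 6.33 and 7.53, 6.26, 7.32 and 7.53), and Col18a1, a basement membrane collagen (7.68 to 7.91 and 8.94, 8.01, 8.85 and 8.95), also rose by the test with replicate 2 lowest, and none of the 4 passed with replicate 2 alone (0.27, 0.49, 0.14 and 0.21). What these genes share beside the arrays was not tested.

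**Figure D1:**
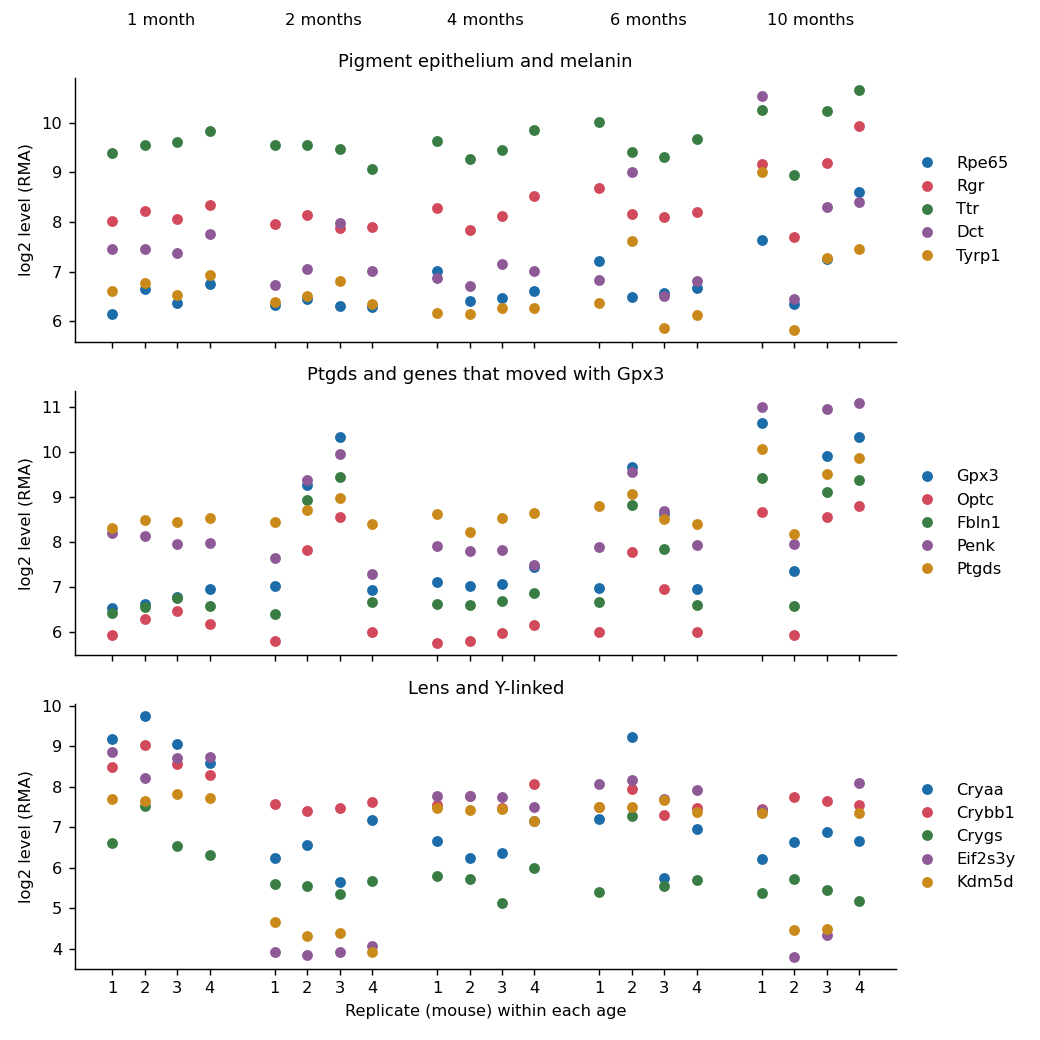
Log2 level (vertical axis) of genes of neighbouring tissue, of genes that moved with Gpx3 and of Y-linked genes on each of the 20 arrays, by age and replicate (horizontal axis), 1 point per array. Replicate 2 of 10 months is low in the upper and middle panels, where the other 3 arrays of 10 months are high, and replicates 2 and 3 of 10 months are low in Eif2s3y and Kdm5d.

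The 3 largest falls of the comparison were in lens and Y-linked genes. Cryaa, the lens chaperone alpha A crystallin, read 9.18, 9.74, 9.06 and 8.58 at 1 month and 6.21, 6.64, 6.88 and 6.66 at 10 months (-2.54 ± 0.49, adjusted p = 0.000392), with 6.25, 6.57, 5.64 and 7.18 at 2 months and 7.20, 9.22, 5.75 and 6.96 at 6 months. Crybb1 and Crygs, 2 other lens crystallins, fell by 1.00 and 1.31. Of the 11 lens genes tested, these 3 were called lower (27.3%) and 1 higher (9.09%), beside 20.8% and 20.6% of all genes. The 4 arrays of 1 month were above the 4 of 10 months in each of the 3. The arrays of the 2 ages did not overlap in 4 of the 11, beside 35.8% of all genes, so these counts are near those of all genes. Eif2s3y and Kdm5d, genes of the Y chromosome, read 8.85, 8.21, 8.72 and 8.74 and 7.70, 7.66, 7.82 and 7.73 at 1 month, and 7.43, 3.80, 4.35 and 8.09 and 7.36, 4.45, 4.49 and 7.36 at 10 months. Replicates 2 and 3 of 10 months were at the level of the 2 month arrays (means of 3.94 and 4.32), and replicates 1 and 4 were nearer to those of 1 month. Without replicates 2 and 3 the falls were -0.87 and -0.37 in place of -2.71 and -1.81. The X-linked partner Eif2s3x rose by 0.58, or by 0.38 without them, with 10.65, 11.14, 11.05 and 10.73 at 10 months against 10.21 to 10.41 at 1 month. Ddx3x, an X-linked RNA helicase, differed little between the arrays of 10 months (12.15 to 12.19, against 11.60 to 11.64; 0.54 ± 0.05, adjusted p = 1.63e-07). Of 350 X-linked genes 97 were called higher and 53 lower, 42.9% in all. Of 11464 autosomal genes 2341 were called higher and 2400 lower, 41.4% in all. The X-linked calls thus leaned towards higher levels, while the autosomal calls were nearly even. Whether this goes with the 2 arrays of low Y-linked level was not tested.

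Between 1 and 10 months 4907 of the 11850 genes tested (41.4%) passed an adjusted p of 0.05, 2444 higher (20.6%) and 2463 lower (20.8%) at 10 months. Counts of list members with all arrays are read beside these shares. Most changes were small. Only 675 genes (5.70%) were called and at least 1.5-fold apart (0.58 on the log2 scale), 280 higher (2.36%) and 395 lower (3.33%). In 4244 genes (35.8%) the 4 arrays of one age lay wholly above those of the other, and 3968 (33.5%) were also called. The median change over all genes tested was 0.04. Of the 2 ages only 10 months held arrays with low Y-linked levels, so this level and age cannot be fully told apart. With a covariate for Y-linked level 3622 genes were called, 1812 higher and 1810 lower, and 3256 of the 4907 kept their call. With replicate 2 as the only 10 month array 2156 genes were called, of which 2076 were among the 4907, and 4876 of the 4907 kept their sign. In that fit 8.07% of all genes were called higher and 10.1% lower, the shares against which counts of members with replicate 2 alone are read.

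**Figure D2:**
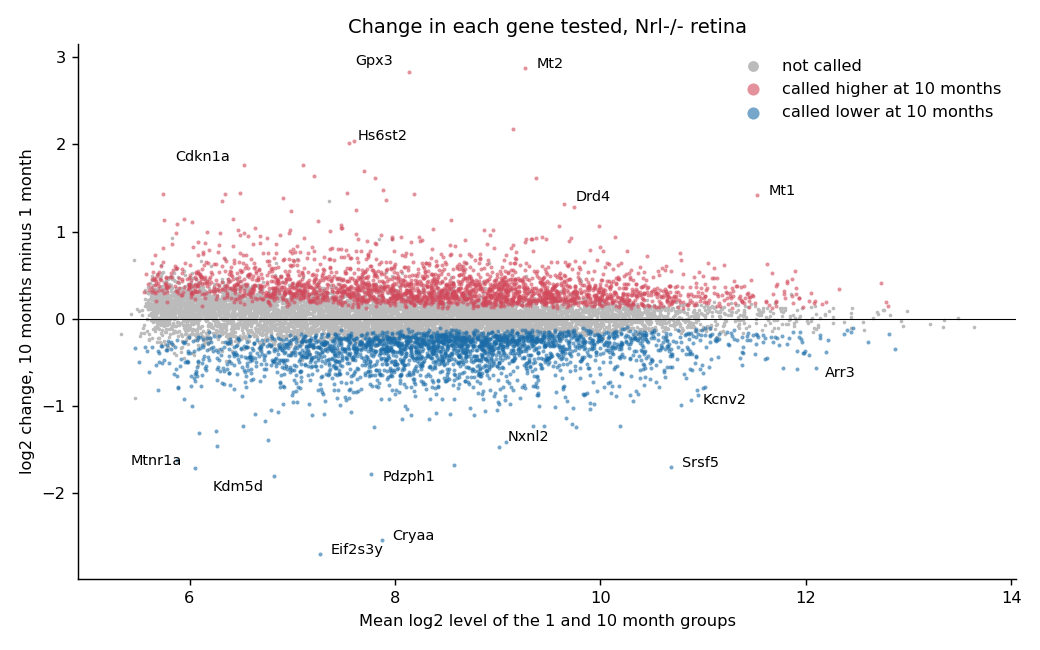
Log2 change from 1 to 10 months (vertical axis) against the mean log2 level of both ages (horizontal axis) for each of the 11850 genes tested, with red points for the 2444 called higher, blue for the 2463 called lower and grey for the rest. Most coloured points lie close to 0 change, with Mt2, Gpx3, Cryaa and Eif2s3y farthest out.

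The 15 largest rises were taken among genes with at least 3 probe sets and no overlap between the arrays of the 2 ages, which leaves out Penk, Fbln1 and Optc because replicate 2 is low in them. Replicate 2 was still the lowest array of 10 months in 7 of the 15, namely Gpx3, Niban1, Slc7a11, Fbn1, Etnppl, Maob and Fbxw21. Hs6st2, which adds 6-O-sulfate to heparan sulfate, read 6.63, 6.59, 6.28 and 6.66 at 1 month and 8.49, 8.58, 8.56 and 8.59 at 10 months. The 4 arrays of 10 months agree within 0.10 and stand 4.04-fold above those of 1 month (2.01 ± 0.07, adjusted p = 7.69e-13). Cdkn1a, the cell cycle inhibitor p21, went from 5.39, 5.61, 5.88 and 5.71 to 7.97, 7.32, 7.44 and 6.91, a 3.4-fold rise (1.76 ± 0.17, adjusted p = 2.95e-07). Fam107a, an actin-associated protein that responds to glucocorticoids, went from 6.60, 6.91, 6.81 and 7.09 to 8.05, 8.37, 9.03 and 8.72 (1.69 ± 0.20, adjusted p = 2.12e-06). Esrrb, an orphan nuclear receptor listed with the rod genes, went from 7.62, 7.44, 7.35 and 7.47 to 8.91, 9.10, 8.63 and 8.95 (1.43 ± 0.08, adjusted p = 6.6e-10). Etnppl, an enzyme that breaks down phosphoethanolamine, and Maob, monoamine oxidase B, are both known from astrocytes and rose by 1.48 and 1.43, with replicate 2 lowest at 8.43 and 6.25 against 6.88 to 7.40 and 4.71 to 5.37 at 1 month. In Slc7a11, the cystine and glutamate exchanger, replicate 2 was the lowest of the 4 arrays of 10 months but still above all of 1 month (5.57 to 5.78 and 7.38, 6.51, 7.02 and 7.36; 1.44 ± 0.21, adjusted p = 2.14e-05). Tc2n, Shisal2b and Fbxw21 rose by 1.61, 1.45 and 1.64. Fbxw21 belongs to a family of closely alike genes and 8 of its 10 probe sets were higher, so which family member changed is uncertain.

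Ednrb, the endothelin B receptor, which Muller cells and other glia carry, split the 10 month arrays in another way. It read 7.14, 6.90, 6.87 and 7.09 at 1 month and 9.18, 9.60, 7.85 and 7.80 at 10 months. Replicates 1 and 2 were more than 1 unit above replicates 3 and 4, and all 4 were above 1 month (1.61 ± 0.28, adjusted p = 0.000139). All 15 of its probe sets were higher.

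After Eif2s3y, Cryaa and Kdm5d the next largest fall was in Pdzph1, a PDZ domain protein gene. It read 8.79, 8.67, 8.62 and 8.58 at 1 month and 6.56, 6.61, 7.18 and 7.16 at 10 months, a 3.45-fold fall (-1.79 ± 0.14, adjusted p = 2.84e-08), although its brightest probe set alone gave -0.20 (adjusted p = 0.371). Srsf5, a serine and arginine-rich splicing factor, went from 11.55, 11.59, 11.88 and 11.17 to 10.00, 9.78, 9.67 and 9.89 (-1.71 ± 0.13, adjusted p = 1.72e-08). Nxnl2, the second rod-derived cone viability factor, went from 9.85, 9.79, 9.78 and 9.54 to 8.23, 8.28, 8.4 and 8.18 (-1.47 ± 0.07, adjusted p = 4.12e-11). Both ages were tight in Nxnl2, and the lowest array of 1 month was more than 1 unit above the highest of 10 months. Tnfsf12, the cytokine TWEAK, fell by 1.69, Crp, C-reactive protein, by 1.46, and Moxd1, a copper monooxygenase-like protein, by 1.42. Uckl1, a uridine kinase-like enzyme, Smug1, a uracil DNA glycosylase, and Abi3, an adaptor of actin remodelling, fell by 1.25, 1.24 and 1.24, and every probe set of the 3 genes was lower.

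**Figure D3:**
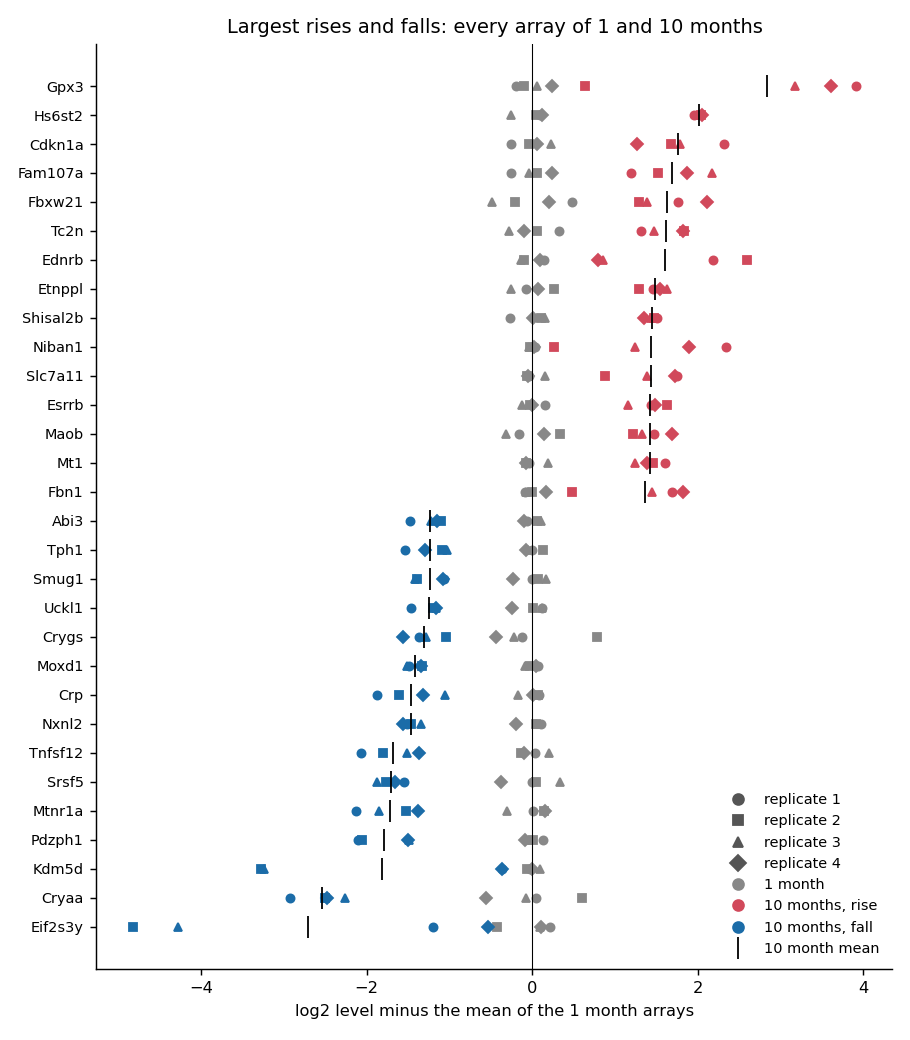
Log2 level of each array of 1 month (grey) and 10 months (red for rises, blue for falls) minus the 1 month mean (horizontal axis) for the 15 largest rises and 15 largest falls, with the replicate shown by the marker and the 10 month mean by a bar. Replicate 2 is the lowest 10 month array in 7 of the rises, by the widest gaps in Gpx3, Niban1, Slc7a11 and Fbn1, while Hs6st2 and Nxnl2 are alike on all 4.

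The melatonin and dopamine genes moved in both directions. Mtnr1a, the melatonin receptor MT1, read 6.93, 7.06, 6.61 and 7.07 at 1 month and 4.79, 5.39, 5.06 and 5.54 at 10 months (-1.72 ± 0.19, adjusted p = 1.27e-06). Its values of 10 months were all under 5.61, the mean level needed for testing, so the size of the fall is uncertain. With the mean or the brightest probe set this gene was too dim to be tested. Tph1, the first enzyme of serotonin and melatonin synthesis, fell from a range of 7.06 to 7.27 to one of 5.6 to 6.11 (-1.24 ± 0.08, adjusted p = 7.85e-09). Drd4, the dopamine receptor of photoreceptors, rose from 8.94, 8.94, 9.16 and 8.94 to 10.38, 11.02, 10.14 and 9.68 (1.31 ± 0.19, adjusted p = 2.11e-05). Of the 6 tested members of this list, which does not hold Tph1, 2 were called higher (33.3%) and 1 lower (16.7%), beside 20.6% and 20.8% of all genes.

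In the cone phototransduction list 11 of the 19 tested members were called lower and 1 higher, with a median change of -0.21 beside 0.04 over all genes. In RNA from whole retinas, fewer cells of a type and less RNA per cell cannot be told apart. The falls were not spread evenly over the cascade. Cnga3, a subunit of the cone cyclic nucleotide-gated channel, read 9.54, 9.56, 9.52 and 9.54 at 1 month and 8.74, 8.6, 8.51 and 8.59 at 10 months, a 1.91-fold fall (-0.93 ± 0.07, adjusted p = 2.51e-08). Kcnv2, a modulatory potassium channel subunit of photoreceptors, went from 11.42, 11.37, 11.25 and 11.39 to 10.24, 10.67, 10.47 and 10.29 (-0.94 ± 0.08, adjusted p = 8.36e-08). Arr3, cone arrestin, went from 12.42, 12.40, 12.50 and 12.20 to 11.85, 11.85, 11.77 and 11.78 (-0.57 ± 0.07, adjusted p = 2.98e-06). Gngt2, the gamma subunit of cone transducin, fell by 0.67 and Opn1mw, the middle wavelength opsin, by 0.46, and in both the arrays of the 2 ages did not overlap.

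Other parts of the same cascade did not pass. Gnat2 changed by -0.03 ± 0.05 (adjusted p = 0.7), Opn1sw by -0.10 ± 0.05 (adjusted p = 0.0866) and Pde6c, the catalytic subunit of the cone phosphodiesterase, by -0.14 ± 0.06 (adjusted p = 0.068). The levels of these 3 genes were above 12 on every array. Pde6c passed without 1 month replicate 4 or 10 month replicate 4 (-0.16 and -0.18). Pde6h, the gamma subunit of that enzyme, was called (-0.21 ± 0.07, adjusted p = 0.029), but the arrays overlapped and the call ended without 1 month replicate 1 or 2 or 10 month replicate 3 or 4 (-0.21 to -0.14).

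Rod genes were measured at lower levels and did not move together. Of 11 tested members 3 were called higher (27.3%) and 4 lower (36.4%), beside 20.6% and 20.8% of all genes, with a median of 0.14. Pde6b, a catalytic subunit of the rod phosphodiesterase, read 9.11, 9.06, 9.05 and 9.11 at 1 month and 7.78, 8.16, 7.79 and 8.23 at 10 months, a 2.13-fold fall (-1.09 ± 0.11, adjusted p = 4.97e-07) seen in all 24 probe sets. Its partner subunit Pde6a rose by 0.35 (adjusted p = 0.00161) in all 23 of its probe sets, from a range of 10.13 to 10.38 to one of 10.40 to 10.72.

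The outer segment and cilium list fell most widely, with 18 of 23 tested members called lower, 0 called higher and a median of -0.44. The other 5 members also had values below 0. Impg1, a proteoglycan of the matrix around outer segments, read 10.37, 10.16, 10.20 and 10.19 at 1 month and 9.27, 9.07, 8.65 and 9.36 at 10 months (-1.14 ± 0.13, adjusted p = 1.63e-06). Rpgrip1, which anchors the RPGR protein in the connecting cilium, went from 10.15, 10.04, 10.34 and 10.06 to 9.36, 9.17, 9.06 and 9.23 (-0.94 ± 0.08, adjusted p = 8.28e-08). Rd3, which restrains guanylate cyclase and carries it to the outer segment, went from 11.48, 11.42, 11.40 and 11.31 to 10.24, 10.63, 10.86 and 10.68 (-0.80 ± 0.09, adjusted p = 1.83e-06). The arrays of the 2 ages did not overlap in any of the 3, and all 15, 29 and 6 probe sets were lower. With 10 month replicate 2 alone, whose pigment genes were low, 12 of the 23 were called lower, beside 10.1% of all genes.

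Of 17 photoreceptor transcription factors tested 4 were called higher and 4 lower (23.5% each way), near the 20.6% and 20.8% of all genes. Prdm1, a repressor that keeps photoreceptor precursors from the bipolar fate, fell from a range of 9.46 to 9.62 to one of 8.07 to 8.75 (-1.05 ± 0.11, adjusted p = 5.55e-07), and Neurod1, a basic helix-loop-helix factor needed by photoreceptors, fell by 0.58. Tbx2, which favours the short wavelength cone fate, rose by 0.50 (adjusted p = 3.62e-06). Samd7, a photoreceptor repressor of the Polycomb kind, rose by 0.56, or by 0.36 without replicate 2, its highest array (9.02, 9.65, 8.88 and 8.63). At the photoreceptor synapse 6 of 18 genes were called lower and 1 higher. Elfn1, a cell adhesion protein that recruits the bipolar cell glutamate receptor, fell by 0.70, Egflam, the dystroglycan ligand pikachurin, by 0.54, Cplx4, a complexin of ribbon synapses, by 0.51, and Cacna1f, the ribbon synapse calcium channel, by 0.49 (adjusted p = 5.93e-06, 7.09e-08, 0.000184 and 5.22e-05). All 48 Cacna1f probe sets were lower.

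The retinoid cycle list moved both ways. Among 14 tested members 6 were called higher (42.9%) and 3 lower (21.4%), beside 20.6% and 20.8% of all genes. Rdh12, the photoreceptor retinol dehydrogenase, read 9.93, 9.80, 9.75 and 9.87 at 1 month and 8.80, 8.98, 9.09 and 8.95 at 10 months (-0.88 ± 0.08, adjusted p = 8.28e-08), while Rpe65, Lrat and Rgr, given above, were called higher. On replicate 2 alone 2 members were called higher and 2 lower, beside 8.07% and 10.1% of all genes.

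In genes of inner retinal neurons most calls were towards higher levels, by small amounts. The shares of all genes were 20.6% called higher and 20.8% called lower. Of 16 bipolar cell genes tested 9 were called higher and 2 lower (median 0.29), of 7 horizontal cell genes 4 and 0 (0.20), of 18 amacrine cell genes 8 and 0 (0.15) and of 16 ganglion cell genes 8 and 0 (0.21). Car8, a carbonic anhydrase-related protein of bipolar cells, read 10.69, 10.80, 10.69 and 10.74 at 1 month and 11.26, 11.35, 11.38 and 11.48 at 10 months (0.64 ± 0.05, adjusted p = 3.98e-08). Vsx1, a homeobox factor of cone bipolar cells, rose by 0.59, Tacr3, the neurokinin receptor of OFF bipolar cells, by 0.53, and Scgn, the calcium binding protein secretagogin, by 0.47. These values are relative, since the array normalization gives all arrays one distribution.

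Prox1, a homeobox factor of horizontal and other inner retinal cells, rose from a range of 9.87 to 10.17 to one of 10.46 to 10.66 (0.48 ± 0.07, adjusted p = 1.89e-05), and Lhx1, a horizontal cell factor, by 0.35. Gad2 and Gad1, the enzymes that make GABA in amacrine cells, rose by 0.48 and 0.35 (adjusted p = 5.23e-05 and 0.000331). Ebf3, a transcription factor of ganglion and amacrine cells, rose by 0.35 and Nefl, the light neurofilament, by 0.24. Pou4f3, a ganglion cell factor with 2 probe sets, read 6.66, 6.88, 6.45 and 6.47 at 1 month and 6.79, 8.14, 7.74 and 6.82 at 10 months (0.76 ± 0.21, adjusted p = 0.00829). Its high arrays were replicates 2 and 3, the 2 with low Y-linked levels, and without them the change was 0.19 (adjusted p = 0.265). It was 0.50 without replicate 2 alone.

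Muller glia genes rose broadly, with 16 of 21 called higher, 0 lower and a median of 0.34. Car14, a membrane carbonic anhydrase, read 9.69, 9.77, 9.57 and 9.50 at 1 month and 10.45, 10.19, 10.55 and 10.45 at 10 months (0.78 ± 0.07, adjusted p = 1.53e-07). Hes1, a Notch target that maintains glial identity, went from 8.14, 8.15, 8.25 and 8.17 to 8.95, 8.79, 9.05 and 8.89 (0.75 ± 0.07, adjusted p = 9.23e-08). Aqp4, the glial water channel, rose from a range of 9.15 to 9.44 to one of 9.84 to 10.10 and Dkk3, a secreted Dickkopf family protein of Muller cells, from a range of 11.20 to 11.41 to one of 11.86 to 12 (0.65 and 0.63). In each of these 4 genes replicate 2 was the lowest array of 10 months, and with it alone 8 of the 21 members were called higher, beside 8.07% of all genes. Rgr also belongs to both Muller cells and pigment epithelium, and how far the pigment epithelium signal bears on this list was not tested beyond a fit with the pigment list as a covariate, in which 12 of the 21 were called higher, beside 14.4% of all genes.

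Markers of reactive glia did not move as one. Gfap, the intermediate filament that marks reactive Muller cells and astrocytes, read 8.55, 8.25, 8.42 and 8.29 at 1 month and 8.01, 8.30, 7.92 and 8.12 at 10 months (-0.29 ± 0.13, adjusted p = 0.0813). Replicates 1, 3 and 4 of 10 months were below all arrays of 1 month and replicate 2 was not, and without replicate 2 the fall passed the test (-0.36, adjusted p = 0.0451). Lcn2, the iron-siderophore binding protein lipocalin 2, rose from 6.81, 6.93, 7.02 and 6.69 to 7.75, 7.61, 8.05 and 8.07 (1.01 ± 0.16, adjusted p = 5.55e-05). Of the 19 gliosis genes tested 9 were called higher and 1 lower, among them Ednrb and the metallothioneins Mt1 and Mt2. In the list of neurotrophic factors and receptors 11 of 21 were called higher and 2 lower (median 0.28). Cntfr, the receptor subunit for ciliary neurotrophic factor, read 9.25, 9.37, 9.18 and 9.20 and then 10.07, 10.31, 10.22 and 10.10 (0.93 ± 0.06, adjusted p = 7.85e-09), and Ntrk2, the receptor for brain-derived neurotrophic factor, rose by 0.39.

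Genes known to respond to glucocorticoid hormone rose together, 17 of 20 tested with 0 lower and a median of 0.57. On replicate 2 alone 13 of the 20 were called higher, beside 8.07% of all genes. Mt2, a metallothionein that binds zinc and copper, read 8.08, 7.38, 7.95 and 7.91 at 1 month and 11.02, 10.70, 10.36 and 10.75 at 10 months, a 7.34-fold rise (2.88 ± 0.22, adjusted p = 2.01e-08) over 2 probe sets. Mt1, its close relative, went from 10.78, 10.74, 11 and 10.74 to 12.42, 12.27, 12.06 and 12.20, 2.67-fold (1.42 ± 0.10, adjusted p = 7.85e-09) over 3 probe sets. The 2 genes are alike in sequence and how far their probes read each other's transcripts was not tested. In both, the 10 month arrays were clear of the 1 month arrays by more than 1 unit. Arrdc2, an arrestin domain protein, rose from a range of 6.74 to 7.18 to one of 7.76 to 8.25 (1.07), but with its brightest probe set alone did not pass (0.40, adjusted p = 0.138). Fkbp5, a co-chaperone of the glucocorticoid receptor and a standard target of it, named after its value was seen, rose from 8.91, 8.91, 8.66 and 8.81 to 9.42, 9.70, 9.97 and 9.86 (0.91 ± 0.10, adjusted p = 1.19e-06).

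The promoters of the metallothioneins are shown because both genes rose strongly on all 4 arrays of 10 months. Metallothionein promoters are known for metal response elements, bound by the zinc-sensing factor MTF1. The pattern TGCNCNC, a loose form of their core, was searched on both strands from 250 bases before to 50 bases after the start (RefSeq, GRCm38.p6). It occurred 3 times for Mt1 (chr8:94178839-94179138, plus strand) and 6 times for Mt2 (chr8:94172368-94172667, plus strand). Of all 32851 promoters of that length 51.0% hold at least 1, so a match need not be a metal response element. Matches are in capitals, 5′ to 3′.
Mt1: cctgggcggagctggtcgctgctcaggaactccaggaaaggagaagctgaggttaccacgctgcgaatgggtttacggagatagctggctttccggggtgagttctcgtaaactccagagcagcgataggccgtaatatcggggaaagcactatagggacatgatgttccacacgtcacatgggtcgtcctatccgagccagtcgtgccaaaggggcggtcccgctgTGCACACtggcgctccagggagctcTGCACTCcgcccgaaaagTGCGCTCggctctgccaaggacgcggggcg
Mt2: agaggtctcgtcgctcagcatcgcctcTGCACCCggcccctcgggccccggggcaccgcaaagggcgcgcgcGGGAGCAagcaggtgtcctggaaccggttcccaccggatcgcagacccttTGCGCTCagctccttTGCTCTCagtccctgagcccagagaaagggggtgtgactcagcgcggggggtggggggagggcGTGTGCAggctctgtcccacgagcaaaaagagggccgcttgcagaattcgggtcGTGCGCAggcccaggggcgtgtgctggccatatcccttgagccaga

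Clock genes and immediate early genes were higher at 10 months as well. Of 17 clock genes tested 10 were called higher and 1 lower (median 0.23), and of 17 immediate early genes 9 were called higher and 1 lower (median 0.39). Per1, a repressor of the circadian feedback loop that also responds to light and glucocorticoids, read 9.51, 9.50, 9.63 and 9.38 at 1 month and 10.72, 10.24, 10.07 and 10.15 at 10 months (0.79 ± 0.11, adjusted p = 9.71e-06). Cry1, its partner in repression, went from 8.95, 9.03, 8.96 and 9.0 to 9.45, 9.54, 9.59 and 9.59 (0.56 ± 0.06, adjusted p = 5.28e-07), and Bhlhe40, a repressor that acts on the same sites, from 9.31, 9.24, 9.26 and 9.21 to 9.92, 9.85, 9.90 and 9.94 (0.65 ± 0.06, adjusted p = 1.09e-07). In Cry1 and Bhlhe40 the arrays of each age agree within 0.15. Per2 rose by 0.50. The hour at which the retinas were taken is not given in the labels used here, so age and time of day cannot be told apart for these genes.

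The E-box CACGTG, the site of the CLOCK and BMAL1 pair, was found in the promoters of 5 of the 16 clock genes with an entry (31.2%), beside 8.09% of all genes. Per1 and Cry1, both called higher, are printed with the site in capitals, 5′ to 3′ on the strand of the gene: Per1 lies at chr11:69098699-69098998 on the plus strand and Cry1 at chr10:85185005-85185304 on the minus strand.
Per1: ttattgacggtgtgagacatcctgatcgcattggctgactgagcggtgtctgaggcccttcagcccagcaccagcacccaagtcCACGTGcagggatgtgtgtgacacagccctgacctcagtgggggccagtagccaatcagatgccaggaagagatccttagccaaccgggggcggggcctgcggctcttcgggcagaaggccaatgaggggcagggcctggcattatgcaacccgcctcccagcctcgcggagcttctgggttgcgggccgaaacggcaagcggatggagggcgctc
Cry1: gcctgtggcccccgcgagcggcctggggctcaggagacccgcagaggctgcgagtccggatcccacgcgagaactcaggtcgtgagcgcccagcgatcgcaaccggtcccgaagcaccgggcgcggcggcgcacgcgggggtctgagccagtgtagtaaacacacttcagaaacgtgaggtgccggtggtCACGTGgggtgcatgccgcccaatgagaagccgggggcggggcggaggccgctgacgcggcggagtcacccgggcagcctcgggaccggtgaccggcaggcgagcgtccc

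Immediate early genes, which neurons and glia switch on within minutes of a stimulus, differed more between the mice of 10 months. Nr4a3, an orphan nuclear receptor, read 6.13, 6.17, 6.37 and 6.16 at 1 month and 8.19, 7.40, 6.55 and 6.48 at 10 months (0.95 ± 0.24, adjusted p = 0.00379), and without replicate 1 the rise was 0.60. Fos went from 8.64, 8.84, 8.94 and 8.57 to 9.61, 9.75, 9.01 and 9.0 (0.59 ± 0.14, adjusted p = 0.00262), and Fosl2, a Fos relative, from 7.18, 7.12, 7.37 and 7.27 to 8.23, 8.26, 7.95 and 7.61 (0.77 ± 0.11, adjusted p = 2.14e-05). Replicates 1 and 2 were the higher pair in all 3 genes, as in Ednrb. Bag3, a co-chaperone of the heat shock response, had the same higher pair, with 7.44 to 7.57 at 1 month and 9.04, 8.66, 7.95 and 8.13 at 10 months (0.94 ± 0.16, adjusted p = 0.000118). The cAMP response element TGACGTCA was found for 2 of 15 immediate early genes, neither of them called, beside 2.03% of all genes.

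Stress genes outside these lists were mixed. In the heat shock and cold response list 3 of 14 were called higher (21.4%) and 5 lower (35.7%), beside 20.6% and 20.8% of all genes. Cirbp, the cold-inducible RNA binding protein, read 10.41, 10.52, 10.44 and 10.22 at 1 month and 11.23, 11.07, 11.20 and 11.12 at 10 months, a 1.69-fold rise (0.76 ± 0.06, adjusted p = 4.51e-08). Hsph1, a large heat shock protein that aids refolding, fell from a range of 9.66 to 9.75 to one of 8.96 to 9.13 (-0.67 ± 0.06, adjusted p = 1.01e-07). Chordc1, a co-chaperone of HSP90, fell by 0.70, but its brightest probe set gave 0.075 (adjusted p = 0.721). The chaperones and unfolded protein response genes of the endoplasmic reticulum had 8 of 20 called lower (40%) and 2 higher (10%). Creld2 and Pdia4, proteins of the folding machinery, both fell by 0.84, from a range of 8.39 to 8.54 to one of 7.56 to 7.73 and from a range of 9.96 to 10.04 to one of 9.01 to 9.31 (adjusted p = 4.58e-09 and 2.44e-08), and Manf, a secreted factor induced by unfolded protein, fell by 0.43 (adjusted p = 0.00274). The direction of Manf turned with the brightest probe set, which gave 0.299 (adjusted p = 0.0376).

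Of 18 targets of ATF4, the integrated stress response factor, 6 were called higher and 2 lower, beside 20.6% and 20.8% of all genes. Besides Slc7a11, the targets called higher included Nupr1, a stress-induced chromatin protein (0.80), Cebpb, a bZIP factor (0.57), and Slc7a5, an exchanger of large amino acids (0.44), at adjusted p = 0.000663, 0.000439 and 6.59e-05. Nupr1 read 7.16, 7.72, 7.63 and 7.13 at 10 months against 6.33 to 6.98 at 1 month, high on replicates 2 and 3, the pair with low Y-linked levels. Without that pair its rise was 0.53 (adjusted p = 0.0276), and with a covariate for Y-linked level 0.40 (adjusted p = 0.119). Cebpb did not pass with its brightest probe set (0.32, adjusted p = 0.056). In the oxidative stress and glutathione list 12 of 24 were called higher and 3 lower. Prdx6, a peroxiredoxin that reduces lipid peroxides, read 9.56, 9.64, 9.50 and 9.63 at 1 month and 10.44, 10.30, 10.47 and 10.43 at 10 months (0.83 ± 0.07, adjusted p = 5.31e-08), even over the 4 arrays. Txnip, an inhibitor of thioredoxin, rose by 0.46. With replicate 2 alone 3 of the 24 were called higher (beside 8.07% of all genes, where it was 20.6% with all arrays), and Gpx3 and Sod3 were not among them.

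Splicing factors fell, 19 of 34 tested against 3 higher, with a median of -0.28. Srsf5 was given above. Rbm5, a regulator of alternative splicing, read 9.52, 9.43, 9.63 and 9.44 at 1 month and 8.41, 8.6, 8.59 and 8.49 at 10 months (-0.98 ± 0.05, adjusted p = 6.3e-10). Srsf10 went from 9.45, 9.39, 9.31 and 9.48 to 8.73, 8.6, 7.99 and 8.76 (-0.89 ± 0.13, adjusted p = 2.21e-05). Hnrnpc, an RNA binding protein of nascent transcripts, rose by 0.97, on 1 probe set. With 10 month replicate 2 alone 15 of the 34 were called lower and 2 higher, beside 10.1% of all genes called lower in that fit. The pigment list as a covariate gave 17 lower (15.6% of all genes), a covariate for Y-linked level 11 (15.3%) and levels taken from the brightest probe set only 12 (13.1%), each with 3 higher.

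**Figure D4:**
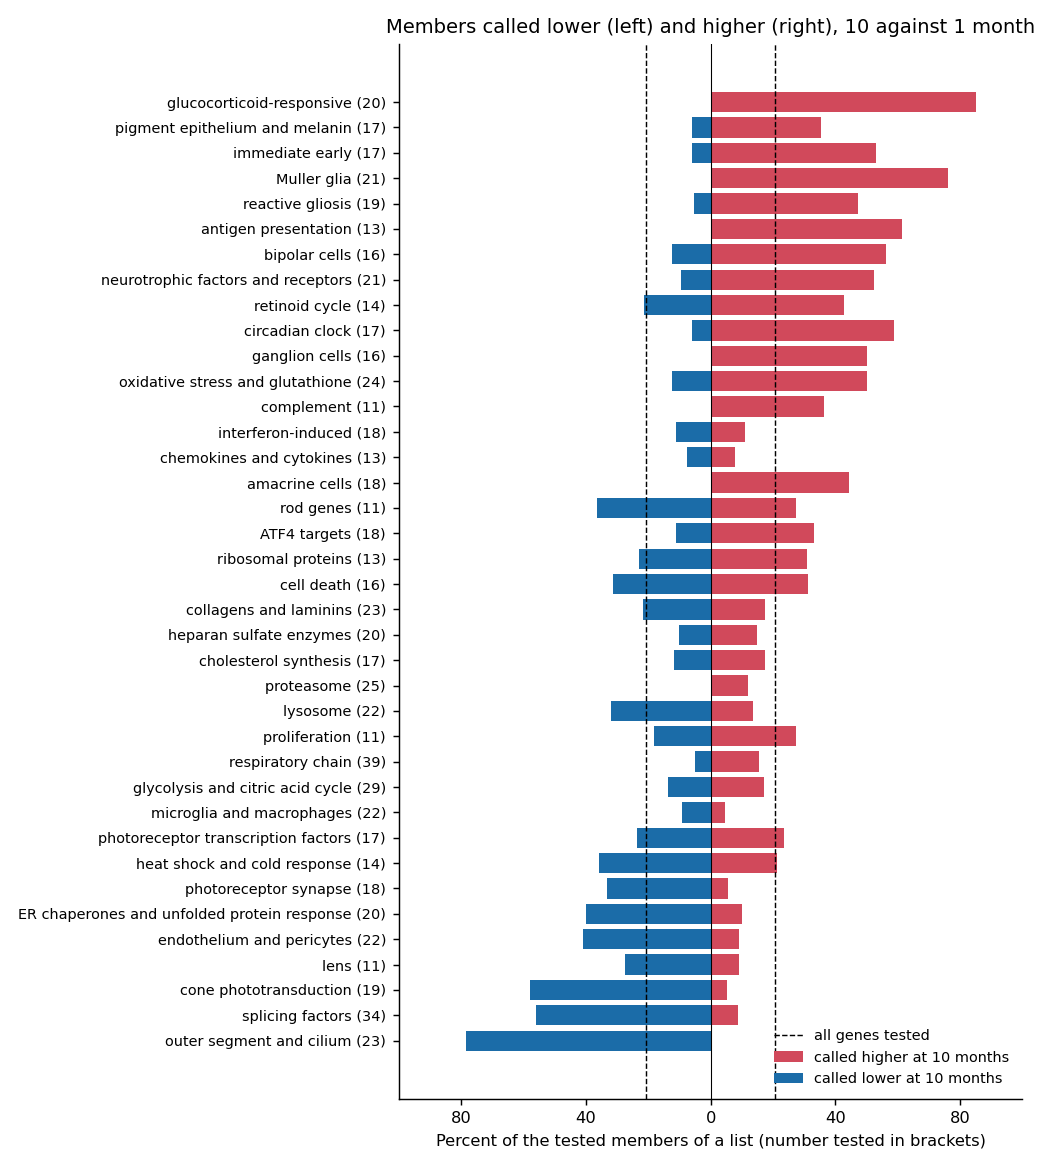
Percent of the tested members of each gene list with at least 10 tested members that were called higher (red, to the right) or lower (blue, to the left) at 10 months, ordered by median change, with the number tested in brackets and dashed lines at 20.6% higher and 20.8% lower for all genes tested. Glucocorticoid-responsive and Muller glia genes reach farthest to the right, and outer segment and cilium, cone phototransduction and splicing genes farthest to the left.

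Few microglia and macrophage genes were called, 1 of 22 higher (4.55%) and 2 lower (9.09%), beside 20.6% and 20.8% of all genes. Their median change was -0.02. Cd14, a receptor for bacterial lipopolysaccharide, rose by 0.37 and P2ry13, a purine receptor of resting microglia, fell by 0.32 (adjusted p = 0.00589 and 0.0117). C1qb, a subunit of complement C1q made by microglia, read 7.40 to 7.57 and 7.11 to 7.45 (-0.23 ± 0.12, adjusted p = 0.122).

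Among complement genes 4 of 11 were called higher (36.4%) and 0 lower, beside 20.6% and 20.8% of all genes. C4b, a component of the classical pathway, read 8.71, 8.45, 8.51 and 8.55 at 1 month and 9.34, 9.39, 9.37 and 9.36 at 10 months (0.81 ± 0.12, adjusted p = 2.14e-05), with less than 0.06 between the arrays of 10 months. Cd59a, which protects cells from the membrane attack complex, went from 8.37, 8.07, 7.56 and 7.92 to 9.25, 8.92, 9.19 and 9.08 (1.13 ± 0.15, adjusted p = 7.04e-06). Cfi, the protease factor I, rose by 0.73. Antigen presentation genes had 8 of 13 called higher and 0 lower (median 0.31), and with replicate 2 alone 1 of 13, where 8.07% of all genes were. B2m, the light chain of MHC class I, read 8.78, 8.38, 8.51 and 8.55 and then 9.31, 8.76, 9.11 and 9.07, and Cd74, the invariant chain of MHC class II, read 5.32, 5.58, 5.92 and 5.48 and then 6.45, 5.72, 6.37 and 6.08. Both were called (0.51 and 0.58) although replicate 2 lay within the range of 1 month, and Cd74 did not pass with its brightest probe set (0.46, adjusted p = 0.112). Psmb8, a subunit of the immunoproteasome, rose by 0.40 with no such split (6.28 to 6.38, against 5.84 to 6.05).

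Interferon-induced genes showed no common direction, with 2 of 18 called higher and 2 lower (11.1% each way), beside 20.6% and 20.8% of all genes. Stat2 and Irf9, parts of the complex that carries the interferon signal to the nucleus, fell from a range of 8.61 to 8.84 to one of 7.91 to 8.07 and from a range of 8.07 to 8.49 to one of 7.61 to 8.03 (-0.70 ± 0.06 and -0.49 ± 0.10, adjusted p = 3.11e-08 and 0.000951). With the brightest probe set Stat2 gave -0.28 and did not pass (adjusted p = 0.0548), although all 26 of its probe sets were lower. Ifi35 rose by 0.51. Il33, an alarm cytokine of glia, rose from 7.99, 7.95, 7.66 and 7.83 to 8.88, 8.55, 8.93 and 9.17 (1.02 ± 0.12, adjusted p = 2.19e-06), and was the only 1 of 13 chemokine and cytokine genes called higher. Cd8a, a T cell coreceptor, was the only 1 of 6 lymphocyte genes called (0.58).

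Of 22 blood vessel genes tested 9 were called lower and 2 higher, with a median of -0.12. Cldn5, the tight junction claudin of endothelium, read 7.47, 7.04, 7.19 and 7.05 at 1 month and 6.48, 6.07, 6.07 and 5.74 at 10 months (-1.10 ± 0.21, adjusted p = 0.000336) over 2 probe sets. Rgs5, a marker of pericytes, went from 8.81, 8.77, 8.65 and 8.76 to 8.11, 7.87, 7.82 and 8.05 (-0.79 ± 0.10, adjusted p = 4e-06). Slco1a4, an organic anion transporter of the blood-retina barrier, fell to 7.02, 6.25, 6.25 and 7.17 from 7.44 to 7.80, with replicates 2 and 3 the lower pair (-0.98, or -0.56 without them). Mfsd2a, a lipid transporter of that barrier and of pigment epithelium, rose from a range of 7.07 to 7.33 to one of 7.78 to 8.05 (0.73 ± 0.09, adjusted p = 2.68e-06). Sparc and Nid1, proteins of the matrix and basement membrane, fell by 0.68 and 0.59, the call of Nid1 ending with its brightest probe set (-0.20, adjusted p = 0.521). With the brightest probe set 3 vessel genes were called lower in place of 9, beside 13.1% of all genes, and the median was 0.065.

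Lists of energy metabolism and protein turnover are read beside the 20.6% of all genes called higher and the 20.8% called lower. The respiratory chain had 6 of 39 called higher and 2 lower (median 0.02), the proteasome 3 of 25 and 0 (0.05), cholesterol synthesis 3 of 17 and 2 (0.05), and glycolysis and the citric acid cycle 5 of 29 and 4 (0.01). Within the last list Slc16a3, a lactate transporter, fell from a range of 9.16 to 9.38 to one of 8.4 to 8.86 (-0.65 ± 0.09, adjusted p = 1e-05), and Hk2, the hexokinase of photoreceptors, fell from a range of 11.57 to 11.61 to one of 10.92 to 11.37 (-0.45 ± 0.08, adjusted p = 0.000225). Insig1, a brake on sterol synthesis, rose by 0.61. Lysosomal genes had 7 of 22 called lower and 3 higher, with falls of 0.70 in Cln3 and 0.43 in Grn, genes of neuronal ceroid lipofuscinosis. Cell death genes had 5 of 16 called in each direction. Parp1, a DNA damage sensor, fell by 0.79, and Apaf1, the core of the apoptosome, by 0.67 (adjusted p = 7.76e-08 and 2e-07); with the brightest probe set Apaf1 did not pass (-0.37, adjusted p = 0.0755). Mcm2, a DNA replication licensing factor, rose from a range of 7.72 to 7.85 to one of 8.29 to 8.4 (0.54 ± 0.05, adjusted p = 2.75e-07) in all 17 probe sets, and did not pass with the brightest of them (0.34, adjusted p = 0.0633).

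A net change does not give the path, so 10 months was also tested against 4 and against 6 months in the same fit. Against 4 months 2595 genes (21.9%) were called, 1215 higher and 1380 lower, and against 6 months 2403 (20.3%), 1015 higher and 1388 lower. One set of genes kept means near the 1 month level until 6 months and differed at 10 months. Cnga3 had means of 9.54, 9.69, 9.52, 9.45 and 8.61 at 1, 2, 4, 6 and 10 months, and fell by -0.84 ± 0.07 (log2 difference, 10 minus 6 months) after 6 months (adjusted p = 6.16e-07). Kcnv2 had 11.36, 11.43, 11.25, 11.29 and 10.42 (-0.87 ± 0.08, adjusted p = 1.11e-06). Creld2, Stat2 and Pdia4 had 10 minus 6 month differences of -0.98 ± 0.05, -0.60 ± 0.06 and -0.74 ± 0.07. In the other direction Per1 (0.89 ± 0.11), Cirbp (0.80 ± 0.06), Mcm2 (0.50 ± 0.05) and Cdkn1a (1.57 ± 0.17) were above their 6 month means (adjusted p = 1.29e-05, 1.9e-07, 2.94e-06 and 5.08e-06). Fos had a mean of 8.75 at 1 month and 8.23 at 6 months, so its rise after 6 months (1.11 ± 0.14, adjusted p = 2.81e-05) was larger than its net change.

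Another set had moved early. Cd59a had means of 7.98, 8.97, 9.20, 9.10 and 9.11, and the difference of 10 from 4 months was -0.09 ± 0.15 (adjusted p = 0.717). Rpgrip1 went from 10.15 to 9.38 by 2 months and was 9.20 at 10 months (-0.12 ± 0.08 against 4 months, adjusted p = 0.341), and Cacna1f, Car8 and Shisal2b differed from 4 months by 0.01 ± 0.08, 0.01 ± 0.05 and 0.07 ± 0.11. Cryaa had means of 9.14, 6.41, 6.60, 7.28 and 6.60, but 1 array of 6 months read 9.22, within the range of 1 month. C4b was highest at 4 months. Its means were 8.56, 9.86, 9.90, 9.60 and 9.37, and 10 months was -0.53 ± 0.12 relative to 4 months (adjusted p = 0.00295) while still above 1 month.

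Other genes changed at both steps. Nxnl2 had means of 9.74, 9.35, 9.05, 8.90 and 8.27 (-0.78 ± 0.07 against 4 months, adjusted p = 4.25e-07). Cntfr rose to 9.81 at 4 months and 10.18 at 10 months (0.36 ± 0.06, adjusted p = 0.000561). Mt2 rose from 7.83 to 9.21 at 2 months, stayed near that level at 4 and 6 months (9.37 and 9.24) and rose again to 10.71 (1.47 ± 0.22 against 6 months, adjusted p = 0.000112). Hs6st2 made most of its rise by 4 months (8.16) and added 0.39 ± 0.07 after it (adjusted p = 0.000551).

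**Figure D5:**
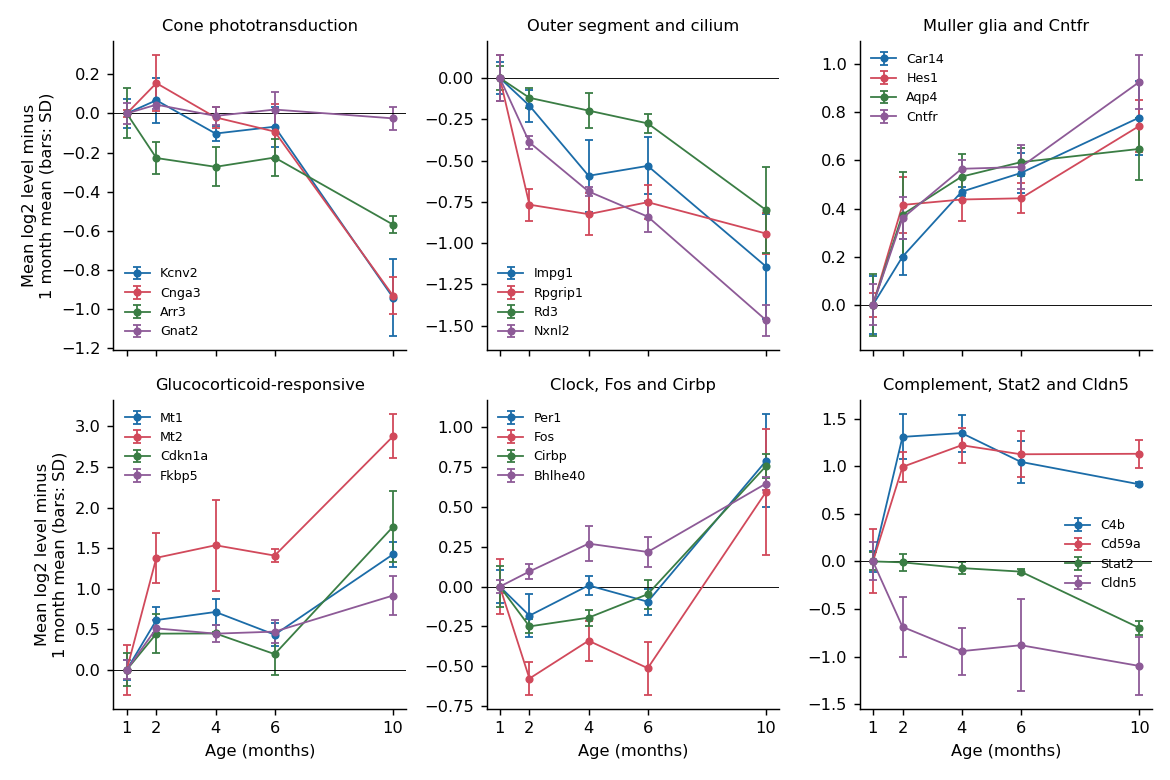
Mean log2 level minus the 1 month mean (vertical axis, bars show 1 SD, n = 4 mice per age) against age in months (horizontal axis) for 4 genes in each of 6 groups. Cnga3, Kcnv2, Per1, Cirbp and Stat2 leave the 1 month level mainly after 6 months, Rpgrip1, Cd59a and Cldn5 before 4 months, and Nxnl2, Mt2 and Cntfr at both times.

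Markers of further tissues were low or near level. Of the red blood cell list 2 of 11 genes were tested and 0 called, of the extraocular muscle list 4 of 13 were tested and 1 called higher, and of the oligodendrocyte list 7 of 12 were tested and 1 called higher. That gene was Mbp, myelin basic protein, which read 7.0 to 7.14 at 1 month and 7.39 to 7.58 at 10 months (0.44 ± 0.06, adjusted p = 1.61e-05), although its brightest probe set gave 0.07 (adjusted p = 0.694).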

How the data were processed

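The deposited values are log2 signals, 1 for each exon probe set and array. The authors used RMA for them per the submitters' processing notes, with version and settings not given in the sources read for this. RMA gives the arrays one distribution, so a shift of all genes would not be seen. Probe sets with 1 gene symbol (179496 of 194293) were named through the platform table, with 2020 symbols updated through RefSeq synonyms, and 1328 with several and 13469 with no symbol were left out. Median polish gave levels for 15800 genes, and the dimmest 25% (mean under 5.61) were left out, which left 11850. limma 3.58.1 in R 4.3.3 fitted all 20 arrays with 1 mean per age (15 residual degrees of freedom, two-sided, Benjamini-Hochberg over all genes tested, threshold 0.05). Changes carry standard errors, with n = 4 mice per age, and the number of arrays limits precision. In simulated data on 11850 genes with independent noise, changes of 0.3, 0.6 and 1.2 were given to 67, 67 and 66 genes. Of these, 46.3%, 82.1% and 98.5% were called. Far fewer genes changed there than were called in the data, and no array stood apart. The rates are therefore not the power of this comparison.

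The comparison, the genes named in any case and the 45 lists were chosen with earlier results of these data known. Named genes are the 15 largest rises and falls among called genes with at least 3 probe sets and no overlap of arrays (predicted genes and olfactory and vomeronasal receptors left out), the members that changed most in each list (at most 4), and a set that holds the main cone, pigment and sex-linked genes; not all of them are described. Others are said to be named after their values were seen. Alternatives were the mean or brightest probe set, other filters and scalings, array weights, a replicate block, covariates, and arrays left out; the fit with 10 month replicate 2 alone was added after seeing the data. Replicate numbers did not pair the mice. Figures were drawn with matplotlib.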

Additional observations from a re-analysis of the deposited data

Results flagged for a closer look

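In 17 of the 302 groups of 4 arrays looked at (the 1 month and the 10 month group of each named gene), one array lay apart from its nearest neighbour by more of the group's range than Dixon's criterion allows. Chance flags about 1 in 20 groups that were not picked by their values. Some genes here, among them Penk, Optc, Fbln1 and Best2, were named after replicate 2 was seen to be low. The 17 can therefore not be set against that rate. At 10 months replicate 2 was the low array in Penk (7.96, against 10.95 for the next array), Optc (5.93 against 8.55), Fbln1 (6.57 against 9.11), Best2 (5.44 against 6.76), Sod3 (6.26 against 7.32) and Col18a1 (8.01 against 8.85). Also at 10 months, Uckl1 was low on replicate 1 (8.92 against 9.19) and Cln3 high on replicate 3 (8.26 against 8.22).

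At 1 month replicate 3 was low in Hs6st2 (6.28 against 6.59) and Nefl (10.22 against 10.30), and high in Slc7a11 (5.78 against 5.59), Nr4a3 (6.37 against 6.17) and Drd4 (9.16 against 8.94). Replicate 1 was high in Cplx4 (10.79 against 10.72) and Pdia4 (10.04 against 9.97), and replicate 4 was high in Tyr (5.23 against 4.91) and low in Slc7a5 (9.70 against 9.82). What set these arrays apart was not tested.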

How the results depend on the processing

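The 4907 calls became 675 with a minimum change of 1.5-fold. With 10 month replicate 2 as the only array of its age, assumed to vary like the other groups, 2156 genes were called, 956 higher and 1200 lower, where fewer arrays were used and the cause of lost calls was not tested. With the brightest probe set of each gene 1556 genes were called lower in place of 2463 (3297 calls in all), and of the 4728 of the 4907 genes that were tested 4314 kept their sign and 2593 their call, for which the cause was not tested. Leaving out each array of 1 or 10 months gave 4288 to 4682 calls, and the remaining alternatives 3556 (pigment epithelium list as a covariate) to 5745 (spread of each array as a covariate), all with at most 5 of the 4907 changed in sign where the gene level was made by median polish or the mean of the probe sets.

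Some named genes turned direction, and the cause was not tested. With the brightest probe set Fbn1 was -0.038, Chordc1 0.075, Manf 0.299 and Col18a1 -0.036. With a covariate for Y-linked level Kdm5d was 0.16 and Pou4f3 -0.027. With 10 month replicate 2 alone Rpe65 was -0.12, Lrat -0.03, Rgr -0.47, Penk -0.10, Optc -0.29, Fbln1 -0.004 and Ptgds -0.27. The brightest probe set also ended the calls of 16 named genes, among them Lhx1, Ebf3, Nr4a3, Pde6h, Rgr, Optc and Fbln1, and the Y-linked covariate those of 12, among them Pde6a, Samd7, Fos, Cd14, Psmb8, Irf9, Slco1a4, Manf and Chordc1. With 10 month replicate 2 alone the named genes that turned lost their call, and so did others that kept their direction, among them Crygs (-1.03). Of the 148 named genes tested, 146 kept their direction and side of the threshold with the mean of the probe sets, 148 with median centring, 147 with quantile normalization and 143 on the 8 arrays alone.

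A fit with the replicate number as a block called 4626 genes and changed no call among the named genes. The deviations of same-numbered arrays of 1 and 10 months correlated at 0.115, 0.056, 0.464 and 0.073 over genes for numbers 1 to 4, and each number stands for different mice at the 2 ages, so the replicate block was not used. Replicate 1 of 10 months correlated best with its own number, and so did replicate 3, replicate 2 only narrowly, and replicate 4 did not. The 4 arrays per age limit the precision.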

Other observations

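Gene groups not described above held calls in both directions. Of 13 ribosomal protein genes tested 4 were called higher and 3 lower (median change 0.08), of 23 collagen and laminin genes 4 and 5 (0.06), of 20 enzymes of heparan sulfate 3 and 2 (0.06) and of 11 proliferation genes 3 and 2 (0.03), beside 20.6% and 20.8% of all genes. The mean of the correlations of each array with the other 19, over genes, was 0.975 to 0.982 for the 10 month arrays and 0.981 to 0.985 for the 1 month arrays.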
